A study of Homo sapiens with 6 samples.

Results

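HOXA-AS3 knockdown (KD) was compared with a non-targeting control in HT-29 cells, a human colon adenocarcinoma line. The 4 libraries were chosen by their labels from the 6 of the series. They are 2 libraries from cells that received a pool of siRNAs against HOXA-AS3 (siHOXA-AS3) and 2 from cells that received a non-targeting pool (siNT). The 2 other libraries, from cells that received a pool against the paralogous lncRNA HOXB-AS3 (siHOXB-AS3), shared the estimate of the spread and served for a direct comparison of both KDs. All 6 libraries came from HT-29 cells transfected with DharmaFect 4 and harvested after 48 hours, and poly(A) RNA was sequenced. The labels give 10 nM siRNA and the study's methods give another dose. The labels number the libraries of a group as replicates without saying whether these were separate cultures, so p-values measure only the spread between these libraries.

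HOXA-AS3 is a lncRNA transcribed through the middle of the HOXA cluster, antisense to HOXA5, HOXA6 and HOXA7, which encode transcription factors that pattern the embryo along its main axis. RNA interference with an siRNA cuts transcripts that pair with the whole guide strand in the RISC complex. An siRNA guide can also lower other mRNAs whose 3′ UTR pairs with its seed alone, as a microRNA does, so each pool is described here by its sequences before its effects. Cell cycle genes are a common readout in colon cancer lines, because E2F factors drive genes of DNA replication at the start of S phase and the DREAM and MuvB complexes act on genes of mitosis through a CHR element in their promoters.

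The siHOXA-AS3 pool is listed with 4 distinct sequences of 19 bases, and these are shown because both the target and the seed are read from them. They are printed 5′ to 3′ on the strand that equals the target, with positions 12 to 18 in capitals. The guide strand is the complement, and these capitals pair with its seed.
siRNA 1: gagacagaauaGCGAACAa
siRNA 2: caauggaagggCCGAACAa
siRNA 3: aggaaaggacaGCGAAGCu
siRNA 4: guagacagggcACUCGUUa
All 4 matched HOXA-AS3 transcripts of GENCODE v29 on the plus strand of chromosome 7 (GRCh38), siRNA 1 at chr7:27155847-27155865, siRNA 2 at chr7:27152656-27152674, siRNA 3 at chr7:27154078-27154096 and siRNA 4 at chr7:27155265-27155283. siRNA 2 is in 4 of the 5 annotated transcripts and each of the others in 1. siRNA 3 also lies opposite an annotated HOXA7 transcript. siRNA 1 and siRNA 2 share the last 6 letters of the seed match, CGAACA.

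The deposited values are RSEM expected counts, the estimated number of fragments per gene, and they summed to between 15998500 and 26263900 per library. Before any test, the siHOXA-AS3 libraries differed from each other by the GC content of the genes. In siHOXA-AS3 replicate 1, the 1550 genes with transcripts of at most 40% GC lay 0.374 below the mean of the 6 libraries on a log2 scale (the trend stood at -0.374), and in replicate 2 they lay 0.455 above it. The 1992 genes over 60% GC showed the opposite, at 0.402 in replicate 1 and -0.416 in replicate 2. The siNT libraries differed less, at 0.0754 and -0.174 for the low GC genes and -0.0574 and 0.179 for the high GC genes. A smooth trend of level on GC content was therefore removed from each library. With this step the replicate difference of the siHOXA-AS3 libraries, taken as its SD over genes on a log2 scale, went from 0.726 to 0.485, and that of siNT from 0.425 to 0.395. All levels below are counts scaled to library size after this step (GC-adjusted CPM), given for siNT replicates 1 and 2 and then siHOXA-AS3 replicates 1 and 2, and changes are log2 fold changes of siHOXA-AS3 over siNT with the standard error (SE).

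**Figure D1:**
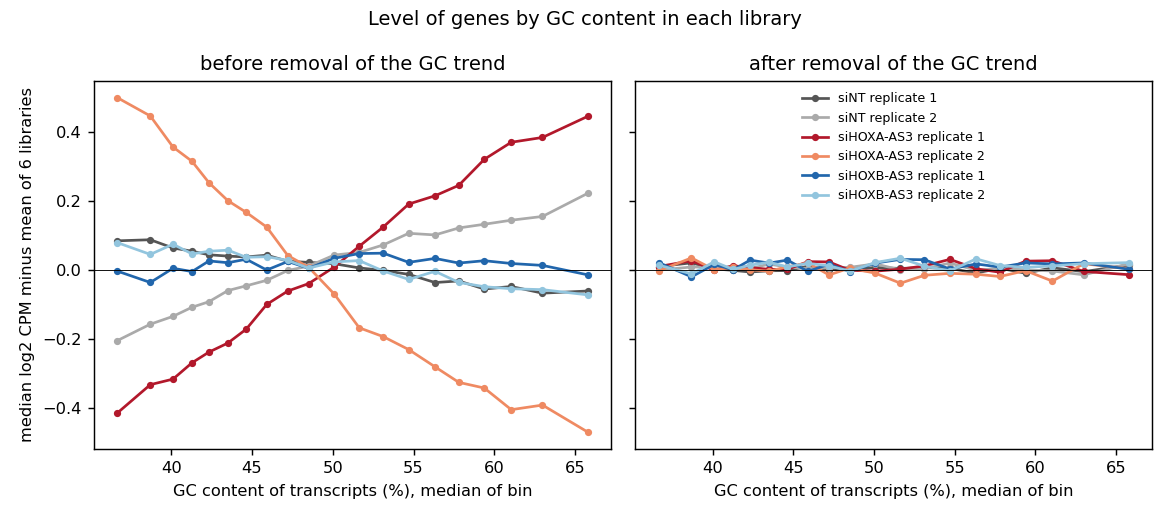
Median log2 CPM relative to the mean of the 6 libraries (y axis) for genes in 20 bins of transcript GC content (x axis, %), before (left) and after (right) removal of the trend, with 1 line per library. Before removal the siHOXA-AS3 replicates slope in opposite directions and cross near the middle of the GC range. After it the 6 lines lie near 0.

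After HOXA-AS3 KD, 288 of 13002 genes rose and 349 fell (edgeR quasi-likelihood test, Benjamini-Hochberg adjusted p under 0.05, n = 2 libraries per group), which is 4.9% of the genes tested, 2.22% for the genes that rose and 2.68% for those that fell. The median absolute log2 change was 0.65 among the genes that rose and 0.63 among those that fell, and 52 and 47 of them changed at least 2-fold. These calls need the GC step. Without it edgeR called 0 genes (0%), with 801 genes at an unadjusted p under 0.05 (6.16%) against 2677 with it (20.6%), and DESeq2 called 56 without it and 801 with it. All 288 and all 349 called genes had the same sign without the trend removed. Each was called at an absolute log2 change of at least 0.373, so their directions could hardly turn. Over all genes, 12073 of 13002 kept their sign, and the median absolute shift in log2 fold change was 0.0397. A looser description asks whether the siHOXA-AS3 pair was above or below the siNT pair without overlap. It was above for 3055 genes (23.5%) and below for 3139 (24.1%), and for 1614 (12.4%) and 2093 (16.1%) without the GC step. Every gene called lay outside the siNT range in both libraries, and without the GC step 259 of the 288 and 312 of the 349 did. The siNT libraries also carried weight, since 20 genes were called without siNT replicate 1 and 20 without siNT replicate 2.

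The targeted RNA was scarce. The expected counts of HOXA-AS3 (Entrez 100133311) were 38 and 18 in siNT and 12 and 12 in siHOXA-AS3, or 1.52 and 1.14 against 0.542 and 0.912 GC-adjusted CPM. Both KD libraries were below both siNT libraries. The log2 fold change was -1.05 (SE 0.434), and edgeR's quasi-likelihood test did not call it (adjusted p = 0.208). The overlapping genes showed no common direction. HOXA5 stood at 32.3 and 36.3 against 23.9 and 40.3 GC-adjusted CPM (log2 fold change -0.10, SE 0.217), and HOXA6 at 1.56 and 2.71 against 2.44 and 1.24 (-0.13, SE 0.412), with KD libraries on either side of the siNT libraries for both. HOXA7 stood at 12.8 and 11.3 against 14.4 and 17.9 (0.41, SE 0.201), higher in both KD libraries, with an adjusted p of 0.294 in edgeR. Against siHOXB-AS3, HOXA7 was higher in siHOXA-AS3 by 0.64 (SE 0.202, edgeR adjusted p = 0.0429). The sign of HOXA5 turned (0.24) when siHOXA-AS3 replicate 1 was left out, and that of HOXA6 when siNT replicate 2 (0.31) or siHOXA-AS3 replicate 2 (0.24) was. The strand setting of the counting is not given in the sources used here, so reads of HOXA-AS3 and of these antisense partners may not be told apart. No gene of the cluster was called (0 of 15 HOXA rows, median -0.08, from -0.12 to 0.09 with 1 library left out), and HOTTIP (-0.60) and HOXA10-AS (-0.46) were among the members with the smallest p. In the HOXB cluster 0 of 10 were called, 6 of 10 were lower in both KD libraries, and HOXB6 (-0.48), HOXB5 (-0.43) and HOXB7 (-0.34) had the smallest p, with a median of -0.33. Of the genes within 2 Mb of HOXA-AS3 outside the cluster, edgeR called 0. SNX10 (log2 fold change 1.48, adjusted p = 0.185) and CBX3 (-0.61, adjusted p = 0.0959), a heterochromatin protein, are given because they were the furthest from 0 in each direction, and were picked after their values were seen. SNX10 was near the floor, at 0.335 and 0.323 against 0.925 and 0.624 GC-adjusted CPM, with a mean FPKM of 0.19 where that of CBX3 was 64.6.

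The 12 genes with the largest rise, outside the HOX clusters and with a mean FPKM of at least 1, included receptors, a ligand and regulators of signalling. NTSR1, the neurotensin receptor, stood at 70.1 and 70.9 in siNT and 192 and 232 GC-adjusted CPM in siHOXA-AS3, a log2 fold change of 1.59 (SE 0.114, edgeR adjusted p = 0.000565). TGFB1, the ligand TGF-beta 1, rose from 33.9 and 31.7 to 76.6 and 81.2 (1.26, SE 0.0984). DKK1, a secreted antagonist of Wnt receptors, rose from 42.5 and 48.7 to 107 and 108 (1.24, SE 0.148). These 3 were the most abundant of the 12, and in each the KD libraries lay well above the siNT libraries. JCAD, a protein of cell junctions, went from 6.05 and 4.63 to 20.1 and 17.5 (1.82, SE 0.178). GPR137B, a membrane protein of lysosomes, went from 8.31 and 8.13 to 25.1 and 23.2 (1.56, SE 0.128). PDLIM7, which binds actin filaments through its PDZ domain, went from 9.06 and 10.3 to 24.6 and 24.3 (1.35, SE 0.14). ANTXR2, a receptor for matrix proteins and for anthrax toxin, was higher in both KD libraries as well, at 21.1 and 28.2 against 10.0 and 9.65 (1.33, SE 0.175).

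The other 5 genes were at low levels. MAOB, the mitochondrial monoamine oxidase, rose from 2.74 and 2.18 to 8.82 and 7.98 GC-adjusted CPM (log2 fold change 1.79, SE 0.235). SSTR5-AS1, a lncRNA antisense to a somatostatin receptor gene and so open to the same doubt on strand as HOXA-AS3, rose from 1.77 and 1.57 to 5.31 and 4.33 (1.58, SE 0.299). GLI1, the transcription factor and target of Hedgehog signalling, rose from 2.59 and 2.80 to 7.55 and 6.08 (1.38, SE 0.217). CLDN2, a claudin that forms cation pores in tight junctions, and SMPD1, the lysosomal acid sphingomyelinase, were less even between replicates. CLDN2 stood at 3.83 and 4.10 against 7.76 and 11.9 (1.32, SE 0.273). SMPD1 stood at 3.96 and 2.60 against 8.15 and 7.29 (1.24, SE 0.232). The adjusted p-values of the 12 genes in edgeR ran from 0.000565 for NTSR1 and TGFB1 to 0.0286 for CLDN2. Without siNT replicate 1 or 2, JCAD, NTSR1, GPR137B and TGFB1 were still called under both, while MAOB (adjusted p = 0.0782 and 0.105), SSTR5-AS1 (0.188 and 0.227), GLI1 (0.157 and 0.132), ANTXR2 (0.0997 and 0.111), CLDN2 (0.237 and 0.246), SMPD1 (0.0845 and 0.21) and DKK1 (0.0914 and 0.0733) were called under neither and PDLIM7 (0.0657 and 0.0476) under 1 of them. CLDN2 and SMPD1 were also not called without either siHOXB-AS3 library.

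Among the 12 that fell most, the most abundant was CAPZB, the beta subunit of the protein that caps actin filaments. CAPZB stood at 217 and 205 in siNT and 59.8 and 61.6 GC-adjusted CPM in siHOXA-AS3, a log2 fold change of -1.80 (SE 0.0921, edgeR adjusted p = 9.1e-05, the smallest of the 24). ANXA13, an annexin of intestinal epithelium, fell from 90.5 and 94.6 to 35.8 and 28.6 (-1.52, SE 0.132). DPYSL2, which binds tubulin, fell from 57.5 and 57.9 to 21.3 and 21.6 (-1.43, SE 0.109). The KD libraries of these 3 genes differed by far less than the groups did. NUPR1, a stress-induced nuclear protein, fell from 28.1 and 33.7 to 8.01 and 6.01 (-2.12, SE 0.171). WBP1L, a membrane protein with WW-binding motifs, fell from 28.2 and 27.2 to 6.88 and 5.87 (-2.12, SE 0.131). Both lost about as much, and they came first in order of size. RFC3, a subunit of the clamp loader of DNA replication, stood at 40.5 and 49.9 against 14.4 and 21.8 (-1.32, SE 0.19). CDCA7L, a protein of the CDCA7 family that binds MYC, stood at 22.5 and 21.9 against 9.78 and 8.37 (-1.30, SE 0.131).

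VGLL1, a cofactor of TEAD transcription factors, fell from 18.6 and 17.1 to 6.37 and 5.91 GC-adjusted CPM (log2 fold change -1.55, SE 0.134). RAB8B, a small GTPase of vesicle transport, fell from 12.9 and 12.7 to 4.49 and 4.28 (-1.57, SE 0.154). SMPD3, the neutral sphingomyelinase, fell from 10.8 and 12.2 to 3.19 and 3.45 (-1.83, SE 0.177). The lysosomal sphingomyelinase SMPD1 had risen. RARRES1, a membrane protein first described as a gene induced by retinoid treatment, stood at 12.6 and 9.68 against 3.46 and 5.23 (-1.41, SE 0.229). TEDC2, which works with the centriolar delta and epsilon tubulins, stood at 2.52 and 3.18 against 1.17 and 1.07 (-1.39, SE 0.293). Adjusted p-values ran from 9.1e-05 for CAPZB to 0.0306 for TEDC2 (edgeR). Without siNT replicate 1 or 2, RARRES1 (adjusted p = 0.167 and 0.0893), TEDC2 (0.16 and 0.277) and RFC3 (0.0657 and 0.115) were called under neither and CDCA7L (0.0545 and 0.0447) under 1, and RARRES1 and TEDC2 were also not called without either siHOXB-AS3 library. Over all 637 genes, 17 were called in the full fit and with each of the 6 libraries left out in turn, 6 higher and 11 lower. Among these were CAPZB, WBP1L, DPYSL2, NTSR1, TGFB1, NUPR1, GPR137B, ANXA13, VGLL1, RAB8B, SMPD3, JCAD and PHLDA2. The others were AKR7A3 (-1.12), an aldo-keto reductase, MYB (-1.25), the transcription factor, MMP24 (-2.44), a metalloprotease at a mean FPKM under 1, and a row of EIF3CL, which is uncertain because EIF3C is a near-identical copy. These 4 are named after their values were seen.

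**Figure D2:**
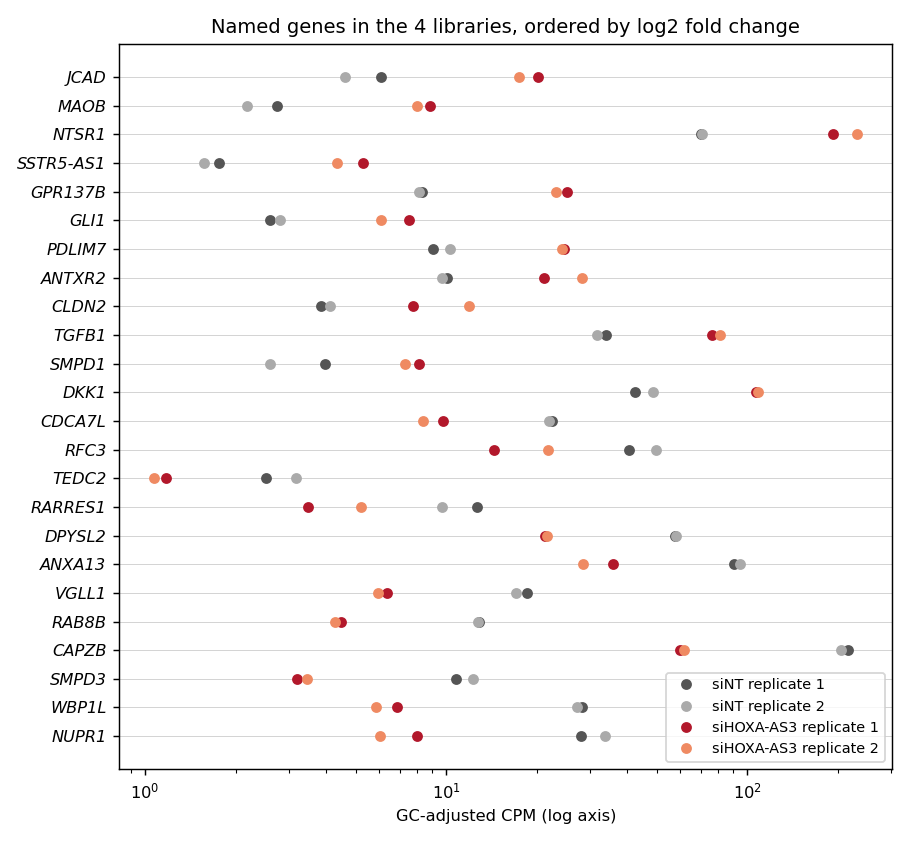
GC-adjusted CPM (x axis, log scale) of the 12 genes with the largest rise and the 12 with the largest fall outside the HOX clusters, 1 point for each of the 4 libraries, ordered by log2 fold change. The siHOXA-AS3 points lie to the right of the siNT points in the upper 12 genes and to the left in the lower 12, with CAPZB at 59.8 and 61.6 against 217 and 205.

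Genes of DNA replication were lower in the siHOXA-AS3 libraries. Of 50 members of a list of replication genes, 17 fell and 0 rose, which is 34.0% where 2.68% of all genes fell. 39 of 50 were lower in both KD libraries than in both siNT libraries, where 24.1% of all genes were, and 0 were higher. The median log2 fold change was -0.44, against 0.00163 over all genes tested, and the means over members relative to the siNT mean were -0.47 and -0.44 in the KD libraries, with the siNT libraries at -0.02 and 0.02. MCM10, which helps to activate the replicative helicase, went from 22.3 and 21.7 to 10.9 and 11.4 GC-adjusted CPM (-0.99, SE 0.12, edgeR adjusted p = 0.00367). CDC6 and CDT1 load that helicase at origins. CDC6 went from 63.9 and 65.7 to 36.5 and 39.8 (-0.76, SE 0.103), and CDT1 from 35.5 and 35.8 to 21.2 and 19.6 (-0.80, SE 0.117). The other members that fell, besides RFC3, were helicase subunits (MCM2, MCM3, MCM4 and GINS2), origin proteins (ORC1, ORC2 and the kinase subunit DBF4), subunits of polymerase alpha and primase (POLA1, POLA2 and PRIM1), the enzymes FEN1 and LIG1 that join Okazaki fragments, and TIMELESS of the fork protection complex. Their log2 fold changes lay between -0.78 for LIG1 and -0.51 for MCM4. They were named because they passed the test. In bulk libraries fewer cells in S phase and less of these RNAs per cell cannot be told apart. Without siNT replicate 1 or 2, 0 of 50 passed, without siHOXB-AS3 replicate 1 or 2, 4 and 5 did, and without either siHOXA-AS3 library 29 did, while the median stayed between -0.49 and -0.43.

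Enzymes that make nucleotides for S phase were lower as well, with 5 of 22 called lower and 0 higher (22.7%) and a median of -0.26, which ran from -0.33 to -0.17 with 1 library left out. TYMS, which makes thymidylate and is the target of 5-fluorouracil, fell from 98.7 and 106 to 52.7 and 47.1 GC-adjusted CPM (log2 fold change -1.04, SE 0.118, edgeR adjusted p = 0.00299). IMPDH2 of guanine nucleotide synthesis fell by 0.58 on the log2 scale and thymidine kinase TK1 fell by 0.51, and SHMT1 (-0.60) and RRM1 (-0.41) passed too. With either siNT library left out 0 of 22 passed, without siHOXB-AS3 replicate 1 or 2, 1 did, and without siHOXA-AS3 replicate 1 or 2, 9 and 7 did. Replication-dependent histones, which are made in S phase, did not share this. Of 27 measured, 0 fell and 1 rose (H2BC21, 15.4 and 16.6 against 26.1 and 26.7), the median was 0.18, and H2BC5 (0.55) and H2AC6 (0.66) were not called. Most transcripts of this class have no poly(A) tail, and the library molecule was poly(A) RNA. Their median ran from -0.07 to 0.36 with 1 library left out.

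Genes of mitosis and the spindle were lower too. Of 65 members, 21 fell and 0 rose (32.3%), 59 of 65 were lower in both KD libraries, and the median was -0.38. The means over members were -0.43 and -0.36 in the KD libraries, with the siNT libraries at -0.01 and 0.01. RACGAP1, a subunit of centralspindlin, went from 89.9 and 93.5 to 53.9 and 48.1 GC-adjusted CPM (-0.85, SE 0.0987, edgeR adjusted p = 0.0034). ANLN, which scaffolds the contractile ring, went from 236 and 228 to 143 and 145 (-0.69, SE 0.0864). NCAPG of condensin went from 84.9 and 87.0 to 54.5 and 59.3 (-0.60, SE 0.0947). In each of the 3 the KD replicates were closer to each other than to either siNT library. Other members that fell served the kinetochore (SPC24, DSN1, KNL1), the chromosomal passenger complex (AURKB, INCENP, BIRC5), the checkpoint and the separation of chromatids (BUB1B, ESPL1), condensin and chromosome structure (SMC2, SMC4, NCAPD2, TOP2A) and motors of the spindle (KIF11, KIF18B, KIF20A, KIF23). Transcripts of this list are poor in GC (median 42.5% against 49.2% over all genes), so the GC step bears on it, and without that step the median was -0.30. When either siNT library was left out 0 of 65 passed, without either siHOXB-AS3 library 2 did, and without siHOXA-AS3 replicate 1 or 2, 40 and 42 did.

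Genes of homologous recombination and the Fanconi pathway, which repair broken and crosslinked DNA, had 11 of 37 called lower (29.7%) and 0 higher, with a median of -0.37. CHEK1, the checkpoint kinase, went from 60.3 and 69.0 to 42.4 and 41.2 GC-adjusted CPM (-0.63, SE 0.103, edgeR adjusted p = 0.012). UBE2T, the ubiquitin-conjugating enzyme of the Fanconi pathway (-0.60), and the helicase BLM (-0.65) fell by about as much, and BRIP1, FANCA, FANCG, FANCI, RMI2, BARD1, RAD51AP1 and BRCA2 passed as well. 26 of 37 members were lower in both KD libraries. None passed without an siNT or siHOXB-AS3 library (0 of 37 under each of these 4 settings), and 15 and 19 did without siHOXA-AS3 replicate 1 or 2.

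**Figure D3:**
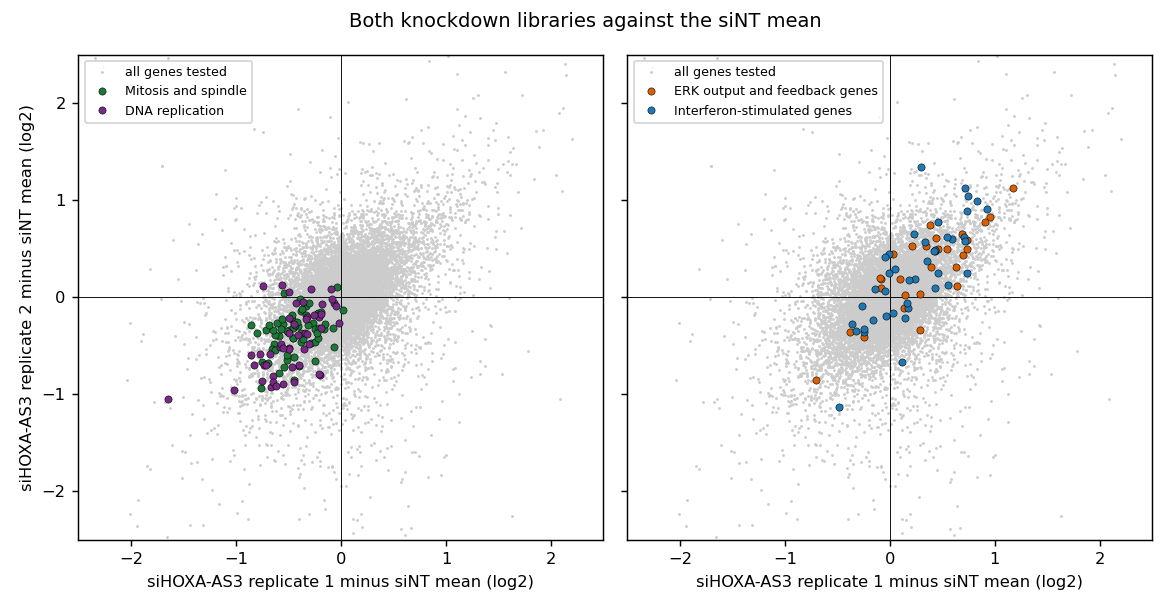
Each gene's log2 GC-adjusted CPM minus the siNT mean in siHOXA-AS3 replicate 1 (x axis) and replicate 2 (y axis), all genes tested in grey and gene lists in colour. Most replication and mitosis genes (left) lie in the lower left quadrant, and most ERK output and interferon-stimulated genes (right) in the upper right. The axes end at 2.5, and 46 genes lie beyond them.

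The promoters of genes that fell are shown for 4 members with a motif of each class. Motifs were searched on both strands in 300 bases per gene, from 250 before to 50 after the RefSeq start (GRCh38.p14), and 80.1% of the single-gene rows tested had such an entry. An E2F motif (TTTCCCGC, TTTCGCGC, TTTGCCGC or TTTGGCGC) was found in 18 of 43 promoters of the replication list (41.9%), in 9.09% of those of the mitosis list, in 11.1% of those of all genes that fell and in 5.49% of all promoters. The CHR letters TTTGAA or TTCGAA were found in 38 of 55 promoters of the mitosis list (69.1%), in 4.65% of those of the replication list, in 20.7% of those of all genes that fell and in 11.3% of all promoters. For the repair list the shares were 19.4% for E2F and 12.9% for CHR. These are matches of letters, and no binding was measured. Capitals mark the E2F letters in CDC6 (chr17:40287629-40287928) and CDT1 (chr16:88803539-88803838, on the other strand of the printed sequence), and the CHR letters in ANLN (chr7:36389612-36389911, in both orientations side by side) and NCAPG (chr4:17810729-17811028). All 4 genes are on the plus strand.
CDC6: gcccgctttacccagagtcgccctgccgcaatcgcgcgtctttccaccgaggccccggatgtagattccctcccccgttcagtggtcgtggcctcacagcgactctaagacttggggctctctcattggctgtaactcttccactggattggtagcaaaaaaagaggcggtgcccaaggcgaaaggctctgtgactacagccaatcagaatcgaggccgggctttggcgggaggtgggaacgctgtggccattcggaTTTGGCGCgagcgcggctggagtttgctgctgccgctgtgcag
CDT1: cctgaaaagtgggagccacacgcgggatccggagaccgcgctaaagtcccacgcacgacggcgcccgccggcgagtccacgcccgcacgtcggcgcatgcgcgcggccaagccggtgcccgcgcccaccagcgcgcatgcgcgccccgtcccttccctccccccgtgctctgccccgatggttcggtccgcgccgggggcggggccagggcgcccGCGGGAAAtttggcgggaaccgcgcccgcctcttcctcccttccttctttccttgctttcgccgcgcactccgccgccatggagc
ANLN: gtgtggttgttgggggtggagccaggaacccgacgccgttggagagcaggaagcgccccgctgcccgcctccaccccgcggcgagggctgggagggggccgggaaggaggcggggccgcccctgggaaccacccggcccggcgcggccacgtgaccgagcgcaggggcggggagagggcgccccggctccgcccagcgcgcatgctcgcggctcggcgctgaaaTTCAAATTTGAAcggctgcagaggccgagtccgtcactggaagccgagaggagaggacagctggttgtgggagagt
NCAPG: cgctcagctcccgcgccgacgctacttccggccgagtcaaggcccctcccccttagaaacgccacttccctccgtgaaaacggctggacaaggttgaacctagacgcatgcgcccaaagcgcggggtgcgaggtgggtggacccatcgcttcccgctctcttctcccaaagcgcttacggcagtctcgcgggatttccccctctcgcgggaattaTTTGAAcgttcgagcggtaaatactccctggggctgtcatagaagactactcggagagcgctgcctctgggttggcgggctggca

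Genes that ERK signalling induces were higher. Of 28 measured, 8 rose (28.6% against 2.22% of all genes) and 1 fell, 19 were higher in both KD libraries, and the median was 0.40, with means over members of 0.33 and 0.29 in the KD libraries. PHLDA2 went from 246 and 254 to 563 and 544 GC-adjusted CPM (1.15, SE 0.0883, edgeR adjusted p = 0.000565) and was called with any library left out. JUNB, a subunit of AP-1, went from 23.4 and 24.4 to 44.9 and 41.0 (0.85, SE 0.12). The ligands EREG (0.52) and HBEGF (0.90) of the EGF receptor rose, as did the feedback genes DUSP5 (0.68), a phosphatase of ERK, and SPRY4 (0.48), and also PHLDA1 (0.67) and IER3 (0.52). CCND1 (cyclin D1) went the other way, from 55.9 and 50.5 to 32.6 and 29.5 (-0.78, SE 0.108, edgeR adjusted p = 0.0061). With either siNT library left out 1 member was still called higher, without siHOXB-AS3 replicate 1 or 2, 3 were, and without siHOXA-AS3 replicate 1 or 2, 13 and 12 were. CCND1 is also on the list of Wnt targets, where 2 of 16 rose (12.5%) and 1 fell (6.25%), with a median of 0.18. The 2 that rose were DKK1 and AXIN2 (0.69), a feedback inhibitor of the pathway.

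Interferon-stimulated genes, a class of antiviral defence, had 6 of 42 called higher (14.3%) and 0 lower, 23 of 42 higher in both KD libraries and a median of 0.25. Means over members were 0.25 and 0.26 in the KD libraries, and 0.05 and -0.05 in siNT. IFIT1, which binds foreign RNA caps, went from 8.54 and 8.88 to 16.5 and 16.3 GC-adjusted CPM (0.92, SE 0.137, edgeR adjusted p = 0.00908). IFIT2 (0.60), IFI27 (0.66), IRF9 (0.82), SAMD9 (0.62) and OASL (0.46) rose as well. All 6 libraries had received an siRNA pool. With either siNT library left out 0 of 42 were called, without either siHOXB-AS3 library 1 was, without siHOXA-AS3 replicate 1 or 2, 11 and 9 were higher, and the median ran from 0.19 to 0.38. For genes of class I antigen presentation, 1 of 17 rose (HLA-B, 0.77), which is 5.88% where 2.22% of all genes rose. The median was -0.08, with PSMB10 (-0.67) and ERAP2 (-0.39) not called. NF-kB targets and chemokines had 2 of 25 higher (IL18, 0.59, and IER3) and 2 lower (LCN2 and TNFAIP2, -0.57), 8% each, with a median of 0.11. LCN2, a secreted siderophore-binding protein, was abundant and fell from 715 and 638 to 335 and 344 (-0.99, SE 0.129).

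In the list of integrins and laminins, which are receptors and components of the basement membrane, 5 of 21 rose (23.8%) and 1 fell, the other members did not pass, and the median was 0.29. ITGA2 stood at 59.0 and 59.4 against 121 and 85.6 GC-adjusted CPM (0.80, SE 0.153), LAMA3 at 47.8 and 50.8 against 71.1 and 79.1 (0.61, SE 0.101), and ITGA6 (0.53) and a row that joins LAMB3 with MIR4260 (0.42) were also among those that passed. LAMA3 and LAMB3 encode chains of laminins of epithelial basement membranes. ITGA1, the alpha 1 subunit of a collagen receptor, fell from 27.3 and 31.1 to 15.5 and 14.1 (-0.99, SE 0.13). Of the 5 that rose 0 were called without an siNT or siHOXB-AS3 library, and without either siHOXA-AS3 library 10 of 21 rose. Other adhesion genes of epithelia were called at shares near those of all genes, of which 2.22% rose and 2.68% fell. Adherens junction, desmosome and keratin genes had 1 of 27 higher (CDH17) and 1 lower (KRT80, -0.45), 3.70% each, with a median of 0.02. Tight junction genes had CLDN2 higher and CLDN1 lower of 23, 4.35% each (median 0.05). CLDN1, a sealing claudin, stood at 188 and 194 against 110 and 114 (-0.77, SE 0.0921).

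Among genes of the differentiated colon, 2 of 26 enterocyte and brush border genes rose (7.69%) and 0 fell, with a median of 0.20. Of all genes 2.22% rose and 2.68% fell. In this list 12 of 26 were higher in both KD libraries and 3 were lower, where 23.5% and 24.1% of all genes were. Means over members were 0.23 and 0.20 in the KD libraries, and -0.04 and 0.04 in siNT. CDHR5, a cadherin of the microvillus tips, went from 18.1 and 16 to 40.8 and 34.4 GC-adjusted CPM (1.15, SE 0.128, edgeR adjusted p = 0.00273), and LGALS3 rose by 0.58. With either siNT library left out 0 of 26 were called, with either siHOXB-AS3 library left out 1 was, and with either siHOXA-AS3 library left out 6 were higher. CDH17, the liver-intestine cadherin, went from 24.4 and 23.6 to 45.5 and 46.7 (0.94, SE 0.103, edgeR adjusted p = 0.00259). Goblet cell and mucin genes had 1 of 25 higher (4%), the trefoil factor TFF1 (0.71), with a median of -0.09. In this list 2 were lower (8%), the mucin MUC20 (-0.68) and the goblet cell transcription factor SPDEF (-0.56). Tuft and enteroendocrine genes had 0 of 9 called (median -0.17, but 0.16 over the 7 members tested with only the siNT and siHOXA-AS3 libraries and 0.38 over the 4 with a mean FPKM of at least 1). The label was checked with 10 markers of colon epithelium, all 10 of which were measured (summed level 4585 to 4939 FPKM in siNT and 3899 to 5842 in siHOXA-AS3). Of 8 fibroblast markers 0 passed the count filter and their sum was 0.05 to 0.06 FPKM in siNT and 0.09 to 0.1 in siHOXA-AS3, with COL1A2, DCN, PDGFRA, PDGFRB and THY1 at 0 counts in the 4 libraries. Of 5 endothelial markers 0 passed, with sums of 0.06 to 0.13 FPKM and KDR and VWF at 0. Of 8 immune markers 2 passed, with CD3D and MS4A1 at 0 and a sum of 846 to 960 FPKM in siNT and 1059 to 1172 in siHOXA-AS3. Nearly all of that sum was lysozyme, LYZ, which secretory cells of the gut also make (log2 fold change 0.28, adjusted p = 0.283 in edgeR). Mesenchymal state genes had 0 of 8 called (median 0.11, from -0.11 to 0.35 with 1 library left out).

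Calls in the stress and metabolic lists are given as shares of the members tested, where 2.22% of all genes rose and 2.68% fell. ATF4 targets and tRNA synthetases had 3 of 35 higher (8.57%), SLC7A11 (1.05), CHAC1 (0.76) and SESN2 (0.51). In this list 1 was lower (2.86%), NUPR1, and the median was 0.09. SLC7A11, the cystine importer, was the most abundant of these 4, at 305 and 297 against 654 and 598 GC-adjusted CPM. CHAC1, which degrades glutathione, stood at 18.5 and 20.4 against 36.6 and 28.4. Both were higher in both KD libraries. Cytosolic heat shock genes had HSPA1B higher (0.59) and HSPA8 lower (-0.42) of 17 (5.88% each), with a median of -0.06. Of 46 lysosome genes, 2 rose (4.35%), the proton pump subunit ATP6V0D1 (0.61) and the lipase LIPA (0.50), with a median of 0.14. LITAF of the same list fell (2.17%) from 174 and 179 to 105 and 86.7 (-0.88, SE 0.108). Of 24 genes of cholesterol synthesis and uptake 1 rose (4.17%) and 0 fell, and the median was 0.16. ELOVL1 rose (0.49) of 16 genes of fatty acid synthesis (6.25%, median 0.08) and PFKP rose (0.51) of 21 of glycolysis (4.76%, median 0.06). MT2A fell (-0.65) of 11 metallothioneins and zinc transporters (9.09%, median 0.13). The YAP and TEAD list had TGM2 (-0.73) and VGLL1 lower of 23 (8.70%, median -0.05).

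Large housekeeping classes had medians close to that of all genes. Cytosolic ribosomal proteins had 1 of 78 called (1.28%), RPS12, lower by 0.57 (2090 and 2055 against 1400 and 1387 GC-adjusted CPM). RPS26 (-0.59) and RPL23A (-0.33) were not called. The changes were small but mostly downward, with 63 of 78 below 0 and a median of -0.08. In both KD libraries 20 of 78 were lower and 2 higher, where 24.1% and 23.5% of all genes were. Ribosome biogenesis had GAR1 (-0.61) and DDX21 (-0.43) lower of 80 (2.5%, median 0.02). Mitochondrial ribosomal proteins had MRPS34 lower (-0.44) of 78 (1.28%, median -0.05). SR and hnRNP splicing regulators had HNRNPUL1 lower (-0.47) of 35 (2.86%, median -0.08). Polycomb and Trithorax genes, which keep HOX genes silent or active, had RBBP4 (-0.70), PCGF1 (-0.56) and PHF19 (-0.38) lower of 42 (7.14%). A row that joins PHC2 with MIR3605 (0.38) was higher (2.38%), and the median of the list was -0.04. RBBP4, a histone chaperone that is shared by PRC2 and other complexes, changed most of these called members, at 314 and 331 against 205 and 192. No member was called among 75 nuclear-encoded respiratory chain genes (median -0.00154), 32 proteasome genes (-0.04), 19 hypoxia targets (0.02), 24 chaperones of the endoplasmic reticulum (0.03), 15 genes of the BCL2 family (0.04), 19 of the RNA interference machinery (-0.02) or 10 HOX cofactors (0.03), by edgeR at an adjusted p under 0.05. The members of these lists with the smallest p were NDUFB2 (0.41, adjusted p = 0.0507), PSMC6 (-0.38, 0.0571), CA9 (-0.56, 0.0602), HYOU1 (-0.42, 0.0553), BCL2L11 (0.45, 0.0771), TNRC6B (-0.38, 0.0737) and MEIS2 (-0.29, 0.236).

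**Figure D4:**
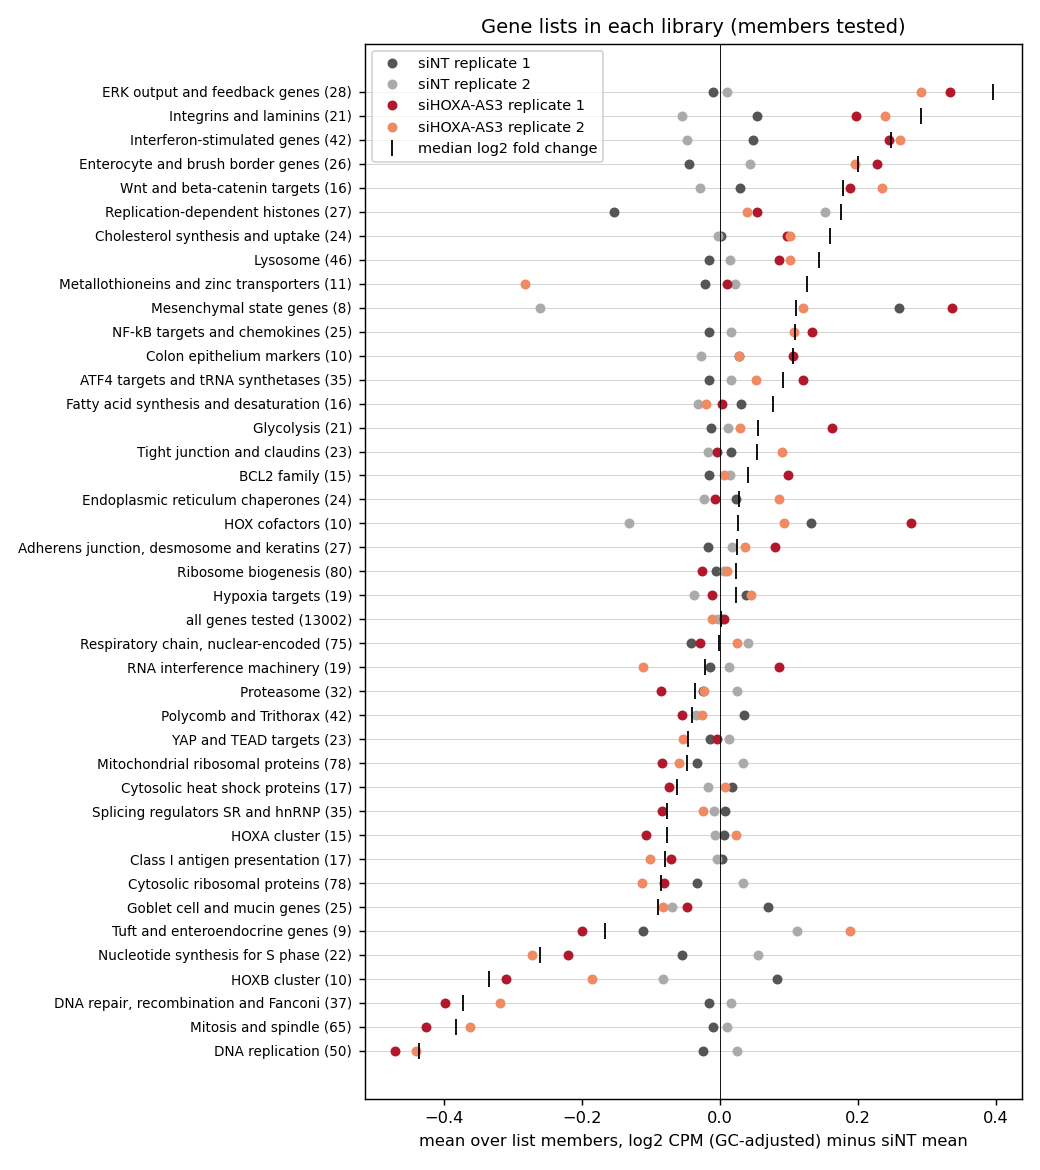
Mean over the measured members of the gene lists described here with 8 or more of them (log2 GC-adjusted CPM minus the siNT mean, x axis), 1 point per library, with the median log2 fold change as a bar. The 2 siHOXA-AS3 points lie close together below -0.3 for replication, mitosis and repair genes and above 0.2 for ERK output and interferon-stimulated genes, while all genes tested lie at 0.

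The seed matches of the siRNAs were counted because each siRNA carries one beside its target. A site was a copy of the 7 capital letters of an siRNA in the longest annotated 3′ UTR of a gene (GENCODE v29), and 11438 genes tested had such a UTR. Of the genes that fell, 65 of 326 (19.9%) held a site of at least 1 of the 4 siRNAs, against 620 of all 11438 (5.42%) and 7 of 274 genes that rose (2.55%). Each siRNA showed the same order, at 4.60%, 6.44%, 4.60% and 7.06% of the genes that fell for siRNA 1 to 4 and 1.17%, 1.36%, 1.29% and 1.89% of all genes. After siHOXB-AS3, whose siRNAs are other sequences, the genes that fell held these sites at 6.26% and those that rose at 5.68%. Read the other way, 2.41% of the 10818 genes without a site fell, 9.06% of the 574 with 1 site and 28.3% of the 46 with 2 or more, of which 0 rose. Their median log2 fold changes were 0.0109, -0.0791 and -0.237. For genes with 2 or more sites the medians relative to the siNT mean were -0.22 and -0.33 in the KD libraries. Genes with sites had longer UTRs, and the order held within classes of UTR length. Below 1000 bases 18.3% of genes with a site fell against 2.38% without one, from 1000 to under 3000 bases 12.8% against 2.79%, and from 3000 bases 6.51% against 1.71%. The part of these sites in the falls was not tested.

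The sites of 6 genes that fell are shown. These had the smallest p-values among genes with a site and a mean FPKM of at least 1, and between them hold a site of each siRNA. Each is printed 5′ to 3′ on the strand of the mRNA (GRCh38), with the letters that the seed pairs with in capitals.
CAPZB, site of siRNA 4, chr1:19339480-19339506, minus strand: cacgccgtgcACTCGTTagattccttt
CAPZB, site of siRNA 4, chr1:19339455-19339481, minus strand: ttcttagaaaACTCGTTttctgctccc
WBP1L, site of siRNA 1, chr10:102815695-102815721, plus strand: tgtctcaaagGCGAACAagttttacca
WBP1L, site of siRNA 1, chr10:102816061-102816087, plus strand: atttgcaaatGCGAACAcattcctgtg
WBP1L, site of siRNA 2, chr10:102815154-102815180, plus strand: ttactgtttaCCGAACAaatgtctgac
RAB8B, site of siRNA 4, chr15:63263841-63263867, plus strand: gcaggacctaACTCGTTttttccttgt
BABAM1, site of siRNA 4, chr19:17279319-17279337, plus strand: aaaatttgagACTCGTTaa
ACVR1, site of siRNA 2, chr2:157736909-157736935, minus strand: tacaatgatgCCGAACAttaggaattg
ABCB10, site of siRNA 3, chr1:229517426-229517452, minus strand: gagtacttttGCGAAGCaaggcatgaa
Among the 12 genes with the largest fall, CAPZB held 2 sites, WBP1L 3, and RAB8B and RFC3 1 each. ANXA13 and DPYSL2, also among the 12, were outside the listing, so whether they held a site is not given here. BABAM1 (log2 fold change -0.97, SE 0.0989), a subunit of BRCA1-A and BRISC complexes, ACVR1 (-1.09), a receptor of bone morphogenetic proteins, and ABCB10 (-1.29), a mitochondrial transporter, are named after their values were seen. Longer runs of shared bases were counted too. CDCA7L shares 13 bases in a row with siRNA 4, and a run of 12 or more was found in 2.14% of the genes that fell and 0.90% of all genes. A run of 11 was found for SMPD3 (siRNA 2) and DPYSL2 (siRNA 3), so 3 of the 12 genes with the largest fall and 0 of the 12 with the largest rise had 11 or more, as did 6.42% of the genes that fell, 4.73% of those that rose and 3.49% of all genes. Of the members with a 3′ UTR, 6% of the replication list and 3.08% of the mitosis list held a site, against 5.42% of all genes. The shares were 2.86% for repair and 0% for nucleotide synthesis. Without genes with a site the median of the replication list was -0.40. Of the 17 replication genes that fell 3 had one (CDC6, CDT1 and RFC3), which were all 3 members with a site. Of all genes that fell, 19.9% had one. Of the 21 mitosis genes that fell 1 did (SMC2), of the 11 repair genes 1 did (CHEK1), and of the 5 nucleotide synthesis genes 0 did. Of the other genes described as lower above, CCND1, LCN2, ITGA1, LITAF, KRT80 and DDX21 held a site.

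**Figure D5:**
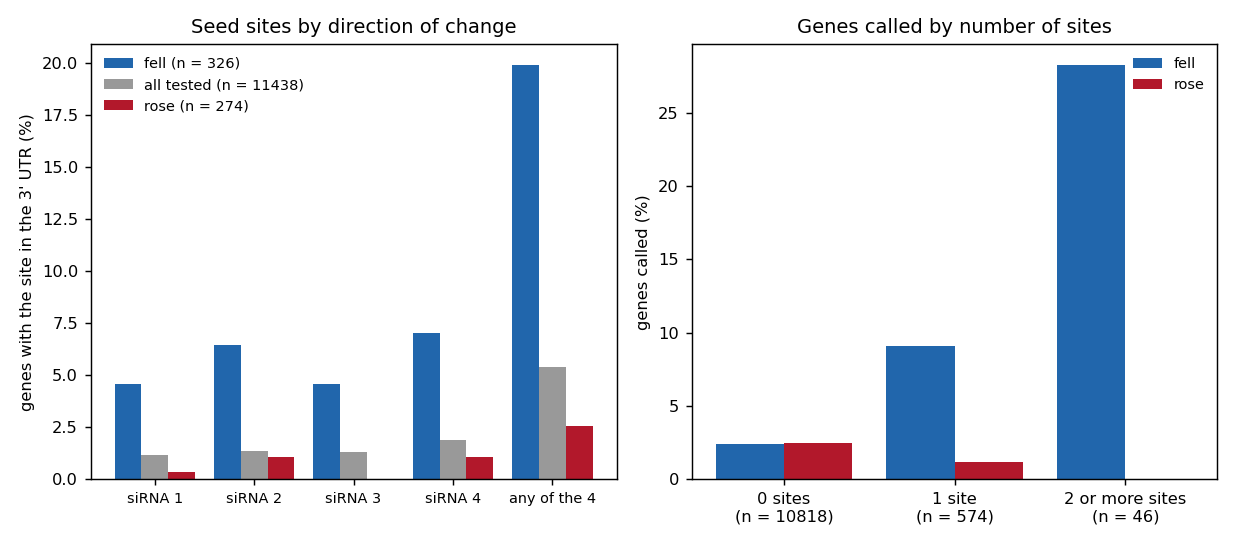
Left, percent of genes with a 3′ UTR site of each siRNA and of any of the 4, for genes that fell, all genes tested and genes that rose. Right, percent of genes called lower or higher by the number of sites. The genes that fell hold a site in 19.9% of cases against 5.42% of all genes, and 28.3% of genes with 2 or more sites fell.

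Both KDs were also compared directly, since they share the siNT libraries. siHOXA-AS3 and siHOXB-AS3 differed in 3547 genes (27.3%), where 1955 genes differed between siHOXB-AS3 and siNT (15%). Of all 13002 genes tested, 1813 were higher in siHOXA-AS3 than in siHOXB-AS3 and 1734 were lower. Of the genes called after HOXA-AS3 KD, 224 of the 288 that rose and 282 of the 349 that fell differed from siHOXB-AS3. Against siNT, siHOXB-AS3 changed 47 of the 288 and 55 of the 349 in the same direction, and 58 and 35 in the opposite one. Among the 24 genes with the largest changes, which were chosen by their values in siHOXA-AS3 and siNT, 21 differed. ANXA13 (difference 0.03, SE 0.132), DKK1 (-0.20, SE 0.143) and RARRES1 (-0.60, SE 0.233) did not pass. In the siHOXB-AS3 libraries ANXA13 stood at 29 and 34.1 GC-adjusted CPM and DKK1 at 104 and 142, near the siHOXA-AS3 libraries. GPR137B (log2 fold change 0.66 after siHOXB-AS3), SMPD3 (-1.27) and DPYSL2 (-0.49) differed between the KDs. Like ANXA13, DKK1 and RARRES1, they were still called against siNT in the same direction after both. Genes called in opposite directions are given further below. Of the replication genes 32 of 50 were lower in siHOXA-AS3 than in siHOXB-AS3 and 1 was higher (median difference -0.55), and of the mitosis genes 37 of 65 were lower and 0 higher (-0.37). Of the enterocyte genes in rows of their own, 14 of 25 were higher in siHOXA-AS3 and 0 lower (0.68), and of the interferon-stimulated genes 15 of 42 were higher and 2 lower (0.28). ERK output genes were split, with 9 higher and 6 lower of 28 (0.19).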

How the data were processed

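Expected counts, FPKM and TPM per RefSeq gene were deposited by the authors for 6 HT-29 libraries, made with RSEM on hg19 per the labels' processing notes (version not given in the sources used here). RSEM estimates the expected counts without normalization. The authors' FPKM values, which RSEM divides by length and depth, were used for level filters and marker sums, and TPM was not used. No source used here gives the strand setting or the aligner. The study's methods name the SENSE mRNA-Seq kit and DESeq2.

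Rounded counts went into edgeR 4.0.16 under R 4.3.3 (filterByExpr with a minimum count of 10, TMM, robust quasi-likelihood fit over all 6 libraries, Benjamini-Hochberg adjustment, threshold 0.05). A loess trend of log2 CPM on transcript GC content (span 0.5) entered as an offset per library, with a GC value for 98.1% of genes tested. Rows without a symbol (193 of 27434, at most 0.0474% of counts) were left out, and rows that join genes or have a copy held 7.85% to 8.75%. No libraries were alike within sampling noise (smallest chi-square per degree of freedom 7.07). Positions in the text are GRCh38 and none were converted. Genes named were HOXA-AS3 and HOXA5 to HOXA7, the 12 called genes that changed most in each direction outside the HOX clusters (mean FPKM of at least 1, no overlap of the KD and siNT libraries, single-gene rows), and the 3 members of each list with the smallest p. Other members named had passed the test. The gene lists were written from general knowledge, and the members and lists were chosen with earlier results of these data known. Alternatives used DESeq2 1.42.0, limma 3.58.1 on log2(FPKM + 0.1), other scalings, filters and GC steps, the replicate number as a block, and each library left out. Some items are not reported here.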

Additional observations from a re-analysis of the deposited data

Results flagged for a closer look

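In 7 of the 24 genes with the largest changes both KDs differed from siNT in opposite directions and from each other (edgeR, direct comparison of siHOXA-AS3 with siHOXB-AS3). These 24 were picked for large changes after HOXA-AS3 KD, so differences between the KDs are not independent of the choice. Over all genes tested 27.3% differed between the KDs. HOXB-AS3 KD changed 58 of the 288 genes that rose and 35 of the 349 that fell in the opposite direction. Among the 7 genes, the log2 difference of siHOXA-AS3 minus siHOXB-AS3 was 3.94 for MAOB (1.79 after HOXA-AS3 KD and -2.14 after HOXB-AS3 KD, each against siNT). It was 3.13 for SSTR5-AS1 (1.58 and -1.55), 2.69 for ANTXR2 (1.33 and -1.36) and 2.61 for NTSR1 (1.59 and -1.02). For JCAD it was 2.48 (1.82 and -0.66) and for GLI1 2.30 (1.38 and -0.92). VGLL1 went the other way, with a difference of -3.46 (-1.55 and 1.91). Adjusted p-values of these differences ran from 6.25e-06 for VGLL1 to 0.000395 for SSTR5-AS1. Groups of 2 libraries are too small to look for single libraries that stand apart.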

How the results depend on the processing

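The number of genes called after HOXA-AS3 KD depended most on the GC step and on the libraries that set the spread. It was 637 with the trend removed, and within 1.5 times that with the trend taken from 20 bins, with gene length removed too, with RLE factors, library totals, unrounded counts, a mean FPKM of at least 1 and DESeq2 (595 to 801). It was 0 in edgeR and 56 in DESeq2 with no GC trend removed, 1340 with no filter on low counts, 122 with only the siNT and siHOXA-AS3 libraries and 297 in limma on FPKM. Leaving out 1 library gave 20 to 2455 calls, with 20 without either siNT library, 128 and 132 without siHOXB-AS3 replicate 1 or 2, and 2455 and 2199 without siHOXA-AS3 replicate 1 or 2, when the remaining library is assumed to vary like the other groups. The 24 genes with the largest changes kept their direction under every alternative that gave them a value (22 of them with a mean FPKM of at least 1, all 24 under the others). They were chosen with both KD libraries beyond both siNT libraries, so leaving out 1 library could hardly turn their direction. With the GC trend removed, replicate numbers did not pair the libraries (correlations of deviations between groups from -0.115 to 0.0758). Without that step the correlations ran from -0.347 (siNT with siHOXA-AS3) to 0.151 (siHOXA-AS3 with siHOXB-AS3). With the replicate number as a block 388 genes were called with the GC trend removed and 0 without, where 538 had an unadjusted p under 0.05. With 1 library left out the log2 fold change of HOXA6 ran from -0.83 to 0.31, with 0.31 without siNT replicate 2 and 0.24 without siHOXA-AS3 replicate 2, and the log2 fold change of HOXA5 ran from -0.52 to 0.24, with 0.24 without siHOXA-AS3 replicate 1. Of the genes called, 45.2% were higher, and 35.0% without siNT replicate 1. The cause was not tested.

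The medians of 17 of 42 lists, such as histones, the HOXA cluster and the respiratory chain, changed sign under at least 1 of 20 alternatives. List medians kept their sign under all 20 alternatives for replication, mitosis, repair, ERK output, interferon-stimulated and integrin genes. With no GC trend removed they were -0.30 for mitosis, -0.30 for repair, 0.31 for interferon-stimulated and 0.35 for ERK output genes, and in DESeq2 without it -0.40 for replication, -0.28 for mitosis, -0.28 for repair, 0.33 for interferon-stimulated and 0.36 for ERK output genes. With the replicate block the integrin median was 0.23, and with the block and no GC trend mitosis was at -0.34, repair at -0.33 and ERK output at 0.34. Limma on FPKM gave 0.37 for ERK output and 0.22 for integrins. Over the libraries left out, medians ran from -0.49 to -0.43 for replication, -0.45 to -0.33 for mitosis, -0.43 to -0.35 for repair, 0.19 to 0.38 for interferon-stimulated genes, 0.37 to 0.42 for ERK output and 0.21 to 0.29 for integrins. The genes with both KD libraries above both siNT libraries numbered 1614 with no GC trend removed, with or without the block. This count and the share of genes with a seed site were recomputed by choice after seeing the data.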
